A study of Drosophila melanogaster with 2 samples.

Results

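Eukaryotic initiation factors (eIF) and elongation factors (eEF) are the soluble proteins that start a polypeptide chain on the ribosome and lengthen it. The 51 genes described here are all genes of the Ensembl release 115 fly annotation whose symbol begins with eIF or eEF and a digit, out of 13945 protein-coding genes on the arms 2L, 2R, 3L, 3R, 4 and X. All 51 are protein-coding. For each gene the value is the highest signal of a peak whose summit, its point of strongest enrichment, lies within 500 bp of a transcription start site (TSS), here called its promoter peak.

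The peaks come from chromatin immunoprecipitation and sequencing (ChIP-seq) with a GFP antibody on whole embryos of pooled sex, aged 0 to 24 h. The flies stably express CG13123 fused at its C terminus to eGFP, a fluorescent tag, and the labels give 1 such line, with no note of its promoter. There is 1 group with 2 biological replicates, numbered 2 and 3, so no conditions were compared. Immunoprecipitates from flies without the fusion were not analysed here, and no value below tells apart binding of CG13123 from enrichment common to GFP precipitations.

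The authors deposited a relaxed list of 30000 peaks for each replicate and for both replicates together. They also deposited a list, labelled optimal, of 2704 peaks that passed an irreproducible discovery rate (IDR) threshold. IDR measures whether peaks rank alike between lists, and which lists the authors compared for this set is not stated here. The authors' label for the relaxed list of both replicates names peaks and background as input for IDR. Its −log10 q-values start at 0.193, and those of replicates 2 and 3 at 0.232 and 0.0807, so a relaxed peak may be background. The IDR list is identical to the 2704 peaks of highest signal in the list of both replicates, so an IDR peak is also a peak with a signal of at least 75.5 there. Signal is the authors' value per peak whose scale no source used here states. Ranks run from 1, the highest signal, to 30000 in each list. Signals are lower in the replicates (highest value 1241.9 in replicate 2 and 761.2 in replicate 3) than in the list of both (1992.1), so replicates are best set side by side by rank. The lists hold no read counts, so the depth is unknown.

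Initiation begins when eIF2 brings the initiator tRNA to the small ribosomal subunit, which eIF1, eIF1A, eIF3 and eIF5 prepare for scanning and for the choice of the start codon. The cap-binding eIF4E, the scaffold eIF4G and the helicase eIF4A recruit that complex to the messenger RNA, and eIF5B joins the large subunit. In elongation, eEF1 delivers aminoacyl-tRNAs, eEF2 moves the ribosome along, and eEF5, the fly eIF5A, relieves stalling. Early embryos rely on maternal messenger RNA, whose use is controlled largely at translation.

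Of the 51 translation factor genes, 12 had an IDR promoter peak, a share of 23.5% (95% Wilson interval 14.0 to 36.8%), against 14.4% of all protein-coding genes. A relaxed promoter peak of both replicates was present at 34 of 51 (66.7%, interval 53.0 to 78.0%), against 50.6% of protein-coding genes. Among genes with such a relaxed peak the IDR shares were closer, at 12 of 34 (35.3%, interval 21.5 to 52.1%) and 28.4%. The remaining 22 of these 34 genes had weaker peaks, with −log10 q-values down to 0.220 at eIF4B. In no list was there a relaxed promoter peak at 11 genes, a share of 21.6% beside 38.8% of protein-coding genes. The intervals cover counting error only, genes are not replicates, and no test was made of these differences.

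**Figure D1:**
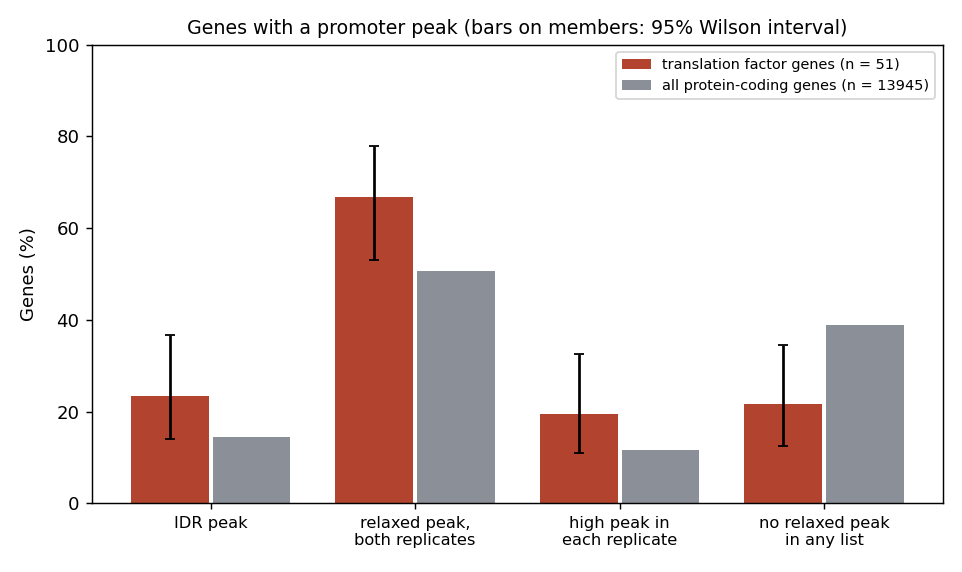
Percent of genes with a promoter peak, for translation factor genes (red, n = 51, with 95% Wilson intervals) and all protein-coding genes (grey, n = 13945). From left to right are IDR peaks (23.5% and 14.4%), relaxed peaks of both replicates (66.7% and 50.6%), a peak among the 2704 highest of each replicate (19.6% and 11.6%), and no relaxed peak in any list (21.6% and 38.8%).

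The median promoter signal of the 34 genes was 59.1 (quartiles 41.2 and 95.3), against 47.2 (30.5 and 83.2) for the 7057 protein-coding genes with a relaxed promoter peak. The same order held in each replicate's own list, with medians of 33.8 (n = 35) and 30.1 in replicate 2 and of 30.4 (n = 34) and 21.4 in replicate 3. The distribution was wide: signals ran from 20.9 at eIF4B, a cofactor of the helicase, to 1086.5 at eIF1. The differences between the medians are small beside this spread.

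**Figure D2:**
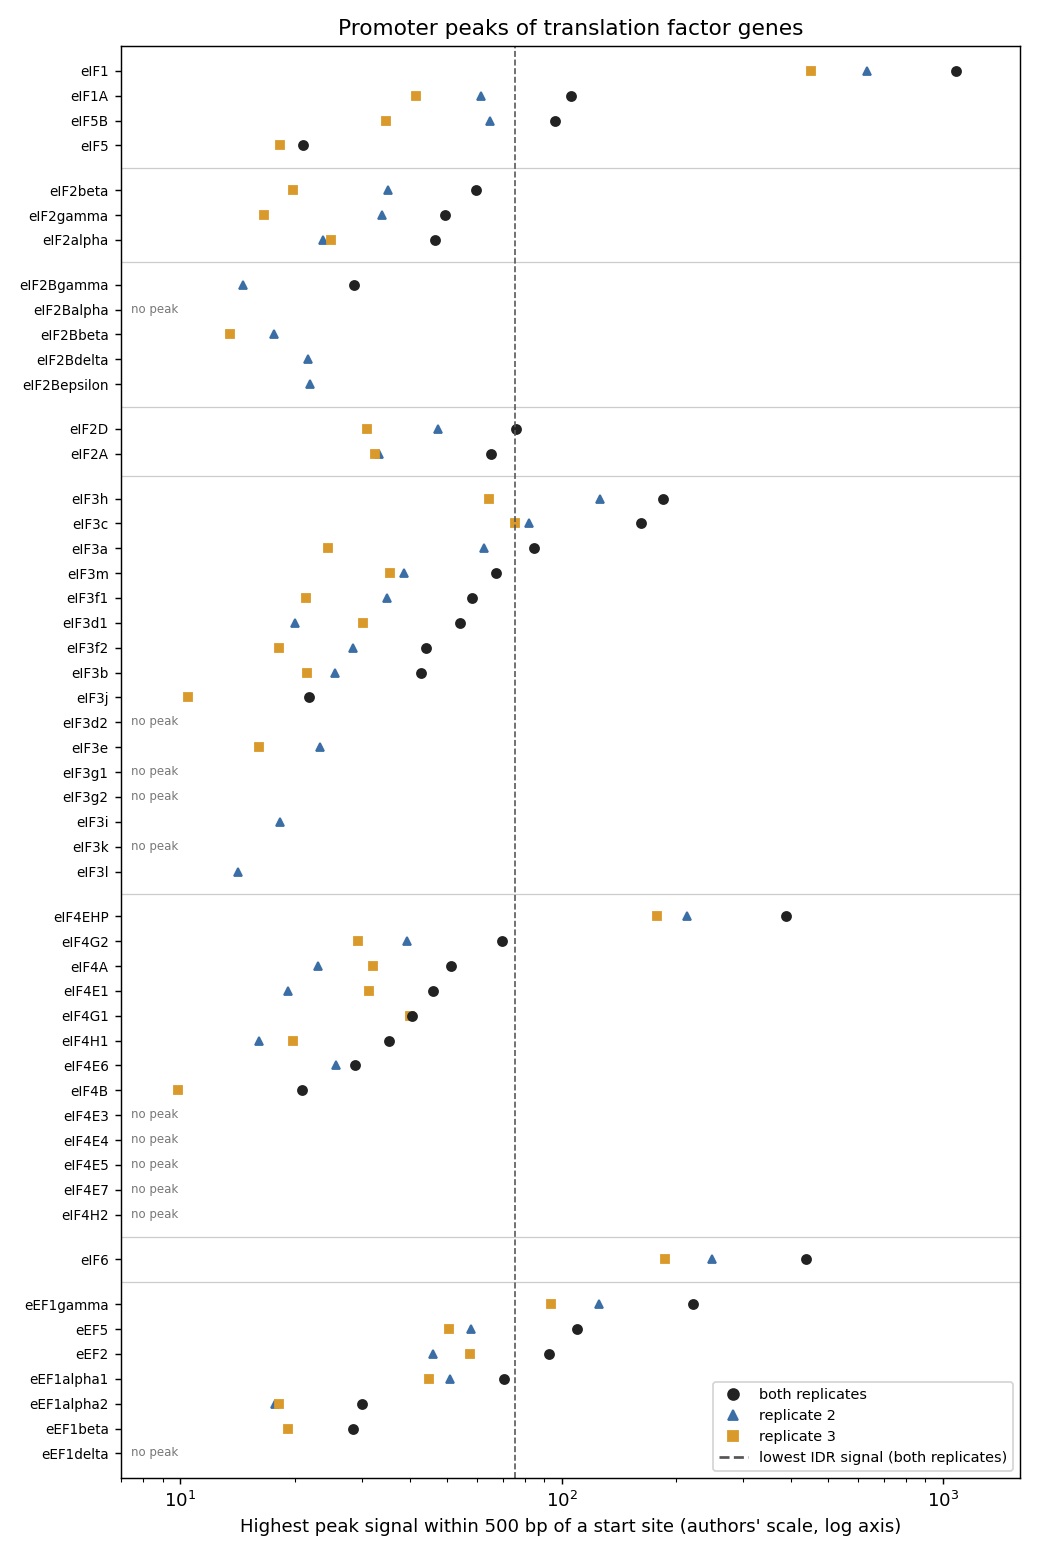
Highest promoter peak signal of each translation factor gene on a log axis, grouped by role and sorted by the signal in both replicates together (circles), with replicate 2 (triangles) and replicate 3 (squares). The dashed line marks the lowest IDR signal, 75.5, and applies to the circles: 12 genes lie at or beyond it, led by eIF1, eIF6 and eIF4EHP, and 11 genes have no peak in any list.

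The factors of scanning, start codon choice and subunit joining held 3 of the IDR peaks among 4 genes, where the share of all protein-coding genes was 14.4%. These are too few genes to read as a trait of the group. At eIF1 and eIF1A the highest summit lay nearer to the TSS of another gene. At eIF1 (3L, 3223341 to 3224650, plus strand), which guards against wrong start codons, the signal was 634.2 in replicate 2, 452.4 in replicate 3 and 1086.5 in both together, at rank 7 in each of the 3 lists. The summit lay 304 bp upstream of eIF1 and only 77 bp from a TSS of RpL28, a ribosomal protein gene read in the other direction. The same peak carried a second IDR summit 101 bp upstream of eIF1 and 280 bp from RpL28, with a signal of 318.4 and rank 135. With the second summit alone eIF1 would still have an IDR peak.

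At eIF1A (3R, 18274665 to 18283005, plus strand), which occupies the aminoacyl site of the small subunit during scanning, signals were 61.4 in replicate 2, 41.4 in replicate 3 and 106.1 in both. Its summit lay 141 bp upstream of eIF1A and nearer, at 78 bp, to the TSS of Vps39, a vesicle tethering gene on the opposite strand. eIF5B (3L, 3428658 to 3460977, minus strand), the GTPase of subunit joining, had 64.9 in replicate 2, 34.6 in replicate 3 and 96.2 in both, in a noncoding part of its own exon and 140 bp upstream of another of its TSSs. eIF5, the GTPase activator of eIF2, differed from these: its highest summit had a signal of 21.0 in both replicates together and 18.2 in replicate 3, with no relaxed promoter peak in replicate 2.

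Each line gives dm6 sequence of 75 bp to each side of the summit, read 5′ to 3′ on the strand of the named gene, taken from the RefSeq copy of the Release 6 assembly. The first 5 were picked for a known promoter word near the summit and eEF2 as a start-site summit without any. Capitals mark matches to the DNA replication element core TATCGATA, which the factors DREF and BEAF-32 bind, to the TATA word TATAAA, or to any of the other elements searched. The windows are chr3L:3222962-3223112 (plus strand) for eIF1, chr3R:18274449-18274599 (plus) for eIF1A, chr3R:4433882-4434032 (minus) for eIF3a, chr3R:24109120-24109270 (minus) for eIF4EHP, chr3R:29220026-29220176 (plus) for eEF1gamma and chr2L:21682018-21682168 (minus) for eEF2.
eIF1: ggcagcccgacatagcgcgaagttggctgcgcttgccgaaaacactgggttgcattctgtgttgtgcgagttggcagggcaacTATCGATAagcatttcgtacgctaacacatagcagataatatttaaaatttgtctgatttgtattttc
eIF1A: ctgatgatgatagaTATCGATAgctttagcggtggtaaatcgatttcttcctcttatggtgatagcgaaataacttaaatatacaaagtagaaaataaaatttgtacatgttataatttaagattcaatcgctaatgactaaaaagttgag
eIF3a: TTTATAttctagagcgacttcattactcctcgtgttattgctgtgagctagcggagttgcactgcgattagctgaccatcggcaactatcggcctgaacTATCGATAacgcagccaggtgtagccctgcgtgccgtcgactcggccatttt
eIF4EHP: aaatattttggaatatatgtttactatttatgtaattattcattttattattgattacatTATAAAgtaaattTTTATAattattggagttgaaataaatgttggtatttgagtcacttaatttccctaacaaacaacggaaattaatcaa
eEF1gamma: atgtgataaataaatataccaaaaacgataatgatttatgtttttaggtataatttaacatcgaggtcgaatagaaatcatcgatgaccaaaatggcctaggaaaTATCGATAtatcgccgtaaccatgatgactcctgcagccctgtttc
eEF2: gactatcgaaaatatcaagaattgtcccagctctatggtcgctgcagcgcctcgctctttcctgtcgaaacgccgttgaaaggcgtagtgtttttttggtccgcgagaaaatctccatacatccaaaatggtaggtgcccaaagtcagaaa

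The core TATCGATA stands in the lines of eIF1, eIF1A, eIF3a and eEF1gamma. eIF4EHP has TATA words on each strand in a window of only 19.2% G and C, against 51.0% in that of eIF3a, and eEF2 has no match. A stretch of TTTATA in the eIF3a line is the TATA word on the other strand.

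eIF2, which carries the initiator tRNA, had no IDR peak at any of its 3 subunit genes, a number of genes too small to read beside 14.4%. Signals in both replicates were 59.8 at eIF2beta, 49.4 at eIF2gamma and 46.5 at eIF2alpha, all present in each replicate. The TSS of eIF2gamma is also that of Su(var)3-9, a histone methyltransferase gene on the same strand, and the TSS of Set lies 32 bp from the summit. Genes of eIF2B, the nucleotide exchange factor that recharges eIF2, were lower still. Only eIF2Bgamma had a relaxed peak of both replicates, with a signal of 28.5, equal to the median of 28.5 over all 30000 peaks of that list. eIF2Bdelta (21.6) and eIF2Bepsilon (21.9) had a promoter peak in replicate 2 alone, eIF2Bbeta in each replicate (17.6 in replicate 2 and 13.5 in replicate 3) but not in the joint list, and eIF2Balpha in none. The eIF2Bbeta summits of the replicates lay 378 bp apart.

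eIF2D, which can deliver initiator tRNA apart from eIF2 and acts in ribosome recycling, had the weakest IDR peak of the 12. Its signals were 47.5 in replicate 2, 30.8 in replicate 3 and 76.0 in both, at rank 2678 of the 2704 IDR peaks. It was not among the 2704 highest peaks of replicate 3. eIF2A, another factor with initiator tRNA binding in other species, stayed below the threshold at 65.2.

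eIF3 is the largest initiation factor, a scaffold on the small subunit, and its 16 genes covered the whole range from no peak to 184.2. eIF3h (2L, 5051193 to 5053094, minus strand), a subunit outside the core, had 126.1 in replicate 2, 64.6 in replicate 3 and 184.2 in both. That summit lay in its intron, 278 bp downstream of a TSS, and a second IDR summit with 124.4 lay 53 bp from a TSS, in a coding exon. eIF3c (2R, 17665678 to 17669275, plus strand), a core subunit that binds eIF1, had 82.1 in replicate 2, 75.5 in replicate 3 and 161.3 in both, with its summit 31 bp upstream of the TSS. The replicates placed the eIF3c summit within 7 bp of each other.

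eIF3a (3R, 4429798 to 4433895, minus strand), the largest core subunit, had 62.6 in replicate 2, 24.4 in replicate 3 and 84.5 in both. Its ranks were 1567 in replicate 2 and 4577 in replicate 3, so it was not among the 2704 highest in replicate 3. The summit lay 62 bp upstream of eIF3a and 8 bp from the TSS of CG1074 on the opposite strand. eIF3m, whose summit is shared with CG8323, followed below the threshold, with 38.7 in replicate 2, 35.5 in replicate 3 and 67.3 in both. Then came eIF3f1 (58.3), eIF3d1 (54.0), eIF3f2 (44.1), eIF3b (42.9) and eIF3j (21.8) in the list of both replicates. eIF3e, eIF3i and eIF3l had peaks only in replicate lists, and eIF3d2, eIF3g1, eIF3g2 and eIF3k had none.

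Of the 13 genes of the eIF4 group, which bind and unwind the capped end of messenger RNA, 1 had an IDR promoter peak, eIF4EHP, beside 14.4% of all protein-coding genes. eIF4EHP (3R, 24063077 to 24108960, minus strand) encodes a cap-binding protein that does not recruit eIF4G and represses translation, in the embryo at caudal messenger RNA with Bicoid. Its signals were 212.8 in replicate 2 (rank 103), 178.0 in replicate 3 (rank 72) and 388.7 in both (rank 91). The summit lay 235 bp upstream of eIF4EHP and nearer, at 141 bp, to the TSS of CG18428 on the opposite strand.

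The helicase eIF4A had 22.9 in replicate 2, 32.0 in replicate 3 and 51.2 in both. The main cap-binding gene eIF4E1 had 19.2 in replicate 2, 31.2 in replicate 3 and 45.9 in both. The scaffold eIF4G1, on chromosome 4, had 40.1 in replicate 3 (rank 1953) and 40.6 in both together (rank 7587), with no relaxed promoter peak in replicate 2. These 3 core genes of cap recognition thus had signals under the IDR threshold. eIF4G2, a related scaffold needed in male germ cells, had 39.3 in replicate 2, 29.3 in replicate 3 and 69.7 in both, with a TSS shared with CG33111. In the list of both replicates eIF4H1 had 35.2, eIF4E6 28.8 and eIF4B 20.9. eIF4E3, eIF4E4, eIF4E5, eIF4E7 and eIF4H2 had no relaxed peak in any list.

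eIF6, which keeps ribosomal subunits from joining too early and takes part in making them, had the second highest signal among the 51 genes. eIF6 (2R, 23849246 to 23850301, minus strand) had 248.5 in replicate 2 (rank 68), 186.7 in replicate 3 (rank 60) and 438.8 in both (rank 63). Its summit lay 88 bp upstream of eIF6 and 59 bp from the TSS of asRNA:CR45928, an antisense RNA gene, and inside an intron of ytr. The replicate summits were 10 bp apart.

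Among the 7 elongation factor genes 3 had an IDR peak, beside 14.4% of all protein-coding genes, and 7 genes are too few to read as a trait of the group. eEF1gamma (3R, 29220172 to 29222109, plus strand), a structural subunit of the exchange complex for eEF1alpha, had 125.2 in replicate 2, 93.6 in replicate 3 and 221.6 in both, with its summit 71 bp upstream of the TSS and no other gene's TSS within 500 bp. eEF5 (2R, 24057798 to 24059483, plus strand) had 57.7 in replicate 2, 50.7 in replicate 3 and 109.8 in both, 8 bp downstream of its TSS. eEF2 (2L, 21677913 to 21682164, minus strand), the translocase, had 46.1 in replicate 2, 57.4 in replicate 3 and 92.6 in both, 23 bp downstream of its TSS. The rank of eEF2 was 2725 in replicate 2 and 990 in replicate 3, so it fell just outside the 2704 highest of replicate 2.

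The remaining elongation factor genes lay below the threshold. eEF1alpha1, the main carrier of aminoacyl-tRNA, had 51.1 in replicate 2, 45.0 in replicate 3 and 70.8 in both. It had a promoter peak among the 2704 highest of each replicate without being in the IDR list. Its highest summits in the replicates lay 983 bp apart, so these are different peaks of a gene with 4 TSSs. With eIF4G2 (69.7) and eIF3m (67.3) eEF1alpha1 made up the 3 genes closest below the threshold, while eIF2D (76.0), eIF3a (84.5) and eEF2 (92.6) were closest above. eEF1alpha2, the paralog of eEF1alpha1, had 17.7 in replicate 2, 18.1 in replicate 3 and 30.0 in both, with replicate summits 1295 bp apart. eEF1beta, of the exchange complex, had 28.4 in both, and eEF1delta of the same complex had no relaxed peak in any list.

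In the 6 families eIF3d, eIF3f, eIF3g, eIF4E, eIF4G and eEF1alpha the 16 numbered paralogs held no IDR peak, where 14.4% of protein-coding genes had one, so the count of 0 says little about these families. The numbered pair eIF4H1 and eIF4H2 was not counted here, and eIF4H1 alone had a relaxed peak. Also not counted was the cap-binding gene eIF4EHP, whose symbol has no such number and whose IDR peak had a signal of 388.7. Relaxed peaks of both replicates are read beside 50.6% of protein-coding genes. Of the 6 paralogs numbered 1, 5 had such a peak, with a median signal of 54.0. Of the 10 paralogs with higher numbers 4 had such a peak, with a median of 37.1, and the other 6, namely eIF3d2, eIF3g2, eIF4E3, eIF4E4, eIF4E5 and eIF4E7, had no relaxed peak in any list. In the list of both replicates eIF4G2 had 69.7 and eIF4G1 40.6, but in replicate 3 the order was turned, with 29.3 at eIF4G2 and 40.1 at eIF4G1, and eIF4G1 had no peak in replicate 2. In the list of both replicates eEF1alpha1 (70.8) and eIF3f1 (58.3) exceeded eEF1alpha2 (30.0) and eIF3f2 (44.1). Expression of these paralogs was not measured here.

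Promoter peaks of translation factor genes were set side by side in the replicates. Over the 29 genes with a promoter peak in each replicate, signals had a Pearson r of 0.92 on the log2 scale and a Spearman rho of 0.79, beside 0.84 and 0.77 over 5673 protein-coding genes. These are descriptions across genes, given without p-values, and the points share libraries. Over the 12 genes with an IDR peak Pearson's r was 0.94 and Spearman's rho 0.79, the same rho as over all 29, and over the other 17 they were 0.46 and 0.37. The IDR peaks were picked by the signal of both replicates, so the split was made on the values correlated. Replicate summits lay at most 116 bp apart for the 12 genes, with a median of 31.5 bp. For the 17 the highest distance was 1295 bp and the median 82.0 bp. Stronger peaks were picked by the split, which may bear on these distances too, and they are a description only.

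Among the 2704 highest peaks of each replicate, 10 of the 51 genes had a promoter peak in replicate 2 and in replicate 3 (19.6%, interval 11.0 to 32.5%), against 11.6% of protein-coding genes. These 10 were 9 of the 12 with an IDR peak, all but eIF2D, eIF3a and eEF2, and eEF1alpha1. At eEF1alpha1 the replicate summits lay 983 bp apart and are not the same peak. Ranks were better in replicate 3 at 18 of the 29 genes (62.1%, interval 44.0 to 77.3%), beside 50.4% of protein-coding genes. The genes whose ranks differed most were eIF4E1 (14900 in replicate 2 and 3035 in replicate 3), eIF3d1 (13697 and 3214), eIF4A (10387 and 2920) and eIF4H1 (20816 and 6786), all ranked better in replicate 3.

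**Figure D3:**
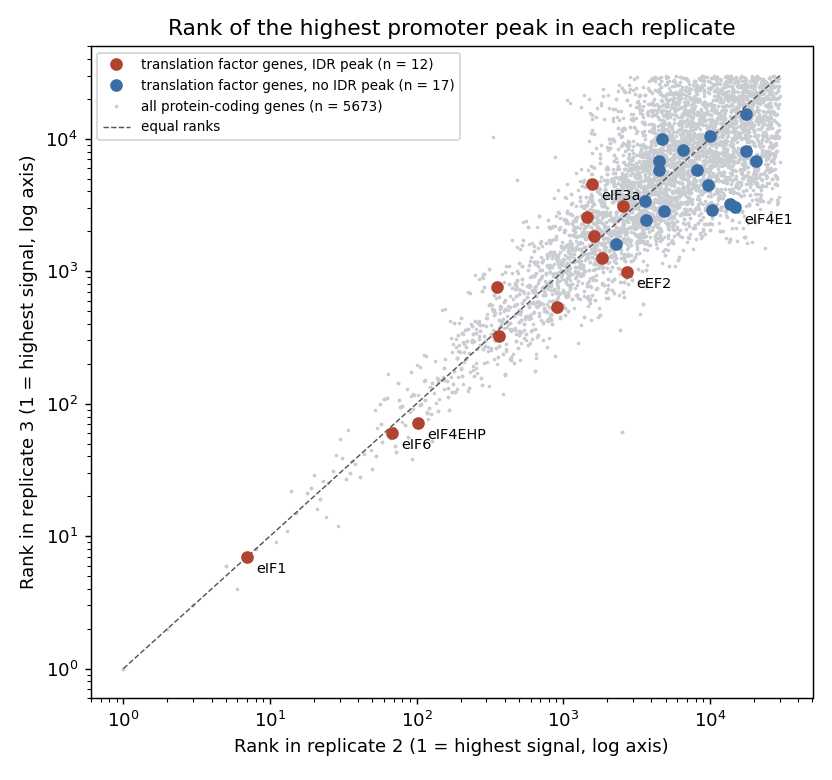
Rank of the highest promoter peak in replicate 2 (x axis) and replicate 3 (y axis), on log axes with rank 1 the highest signal, for translation factor genes with (red, n = 12) and without an IDR peak (blue, n = 17) and for all protein-coding genes (grey, n = 5673). eIF1 sits at rank 7 in each replicate and eIF6 and eIF4EHP near the dashed line of equal ranks, while eIF4E1 lies far below it, with rank 14900 in replicate 2 and 3035 in replicate 3.

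Summits lay close to the start sites of translation factor genes. Of the 34 genes with a relaxed peak of both replicates, 25 had the highest summit within 100 bp of a TSS (73.5%, interval 56.9 to 85.4%), against 36.7% of protein-coding genes. The median distance was 71.5 bp, against 142.0 bp. Where no other gene had a TSS within 500 bp of the summit the shares were 18 of 20 (90.0%, interval 69.9 to 97.2%) and 37.2%. For IDR peaks they were 7 of 12 (58.3%, interval 32.0 to 80.7%) and 32.2%. Summits were upstream of the TSS at 25 of 34 genes (73.5%), beside 75.2% of protein-coding genes. The side was thus close to that of the whole set, while the distance was shorter. No test was made of these differences.

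**Figure D4:**
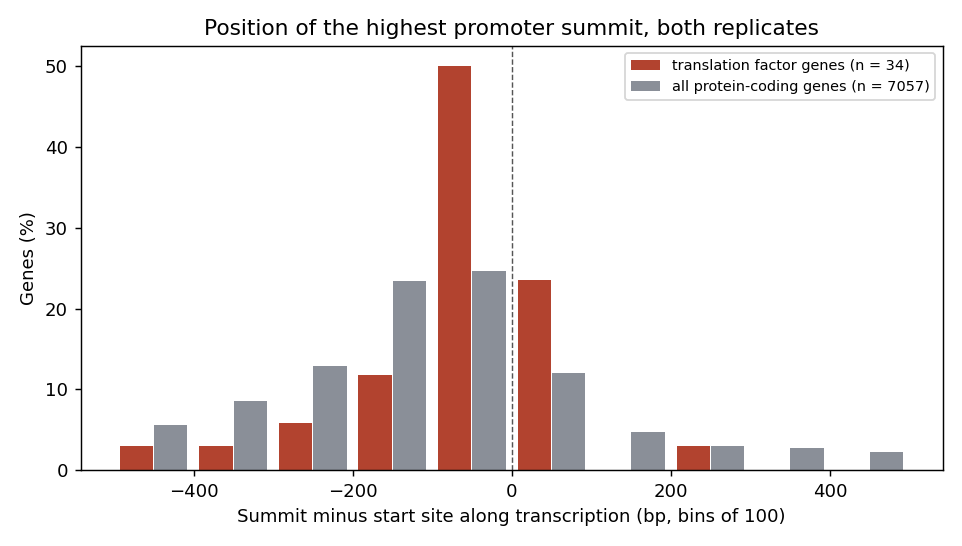
Position of the highest promoter summit relative to the nearest TSS of the gene, in bins of 100 bp along the direction of transcription, as percent of translation factor genes (red, n = 34) and of all protein-coding genes (grey, n = 7057). The bin from 100 bp upstream to the TSS holds 50% of translation factor genes and 24.7% of protein-coding genes.

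Some of these promoters are shared with a neighbour, at a share no higher than that of protein-coding genes. Another gene had a TSS within 500 bp of the highest summit at 14 of 34 translation factor genes (41.2%, interval 26.4 to 57.8%) and at 48.3% of protein-coding genes. Among genes with an IDR peak it was 6 of 12 (50%, interval 25.4 to 74.6%), namely eIF1, eIF1A, eIF3a, eIF3h, eIF4EHP and eIF6, beside 66.1%. The gene's own TSS was the nearest to its highest IDR summit at 7 of 12 (58.3%, interval 32.0 to 80.7%) and at 68.4% of protein-coding genes. The exceptions were eIF1, eIF1A, eIF3a, eIF4EHP and eIF6, which include the 3 highest signals of the 51 genes. Which gene of such a pair the peak belongs to cannot be told apart from these lists.

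Of the 12 highest IDR summits, 8 lay outside the translation factor gene itself, 3 in a noncoding part of its exon (eEF2, eEF5 and eIF5B) and 1 in an intron (eIF3h). Such places were not counted over all protein-coding genes, so nothing is drawn from these counts. A few IDR peaks also lay inside members far from their start. eIF4EHP, 45884 bp long, held a peak of 133.9 in an intron 9762 bp from its TSS and a second of 79.9 at 2494 bp. The peak of 79.9 lies 703 bp from the TSS of Syx1A, the syntaxin gene. eIF5B, 32320 bp long, held intronic peaks of 92.8 and 79.3 at 27756 and 21880 bp from its TSS, with sty as the gene of the nearest TSS, 7912 and 13788 bp away. All 4 peaks had a relaxed peak within 100 bp in each replicate.

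By chromosome arm, IDR promoter peaks were at 5 of 15 translation factor genes on 3R, against 544 of 3421 protein-coding genes there. They were at 3 of 12 on 2R, against 377 of 2852, at 2 of 11 on 3L, against 436 of 2739, and at 2 of 5 on 2L, against 388 of 2657. None of the 7 genes on X and not eIF4G1, the gene on chromosome 4, had such a peak. Of protein-coding genes 250 of 2196 on X and 9 of 80 on chromosome 4 had it. With 7 genes the count of 0 on X says little about the arm.

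The promoter sequences of the 51 genes were searched from 250 bp upstream to 50 bp downstream of the gene start, on each strand. The core of the DNA replication element, TATCGATA, which reads the same on either strand, was in 14 of 51 windows (27.5%, interval 17.1 to 40.9%), against 9.36% of 13945 protein-coding promoters. It was in 5 of 12 windows of genes with an IDR peak (eEF1gamma, eIF1A, eIF3a, eIF3c and eIF6) and in 9 of 39 without (23.1%). Within 100 bp of the highest IDR summit it was in 5 of 12 windows (41.7%, interval 19.3 to 68.0%), now with eIF1 in place of eIF3c, against 8.84% of 1358 highest summits at protein-coding promoters and 4.77% of 2704 IDR summits. The word at the eIF1 summit lies more than 250 bp from the eIF1 start, on the side of RpL28, and so outside the promoter window of eIF1.

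A match did not go with a strong peak at each gene. With the element, 5 of 14 translation factor genes had an IDR peak (35.7%), against 7 of 37 without it (18.9%), and over protein-coding genes the shares were 23.3% of 1305 and 13.4% of 12640. eEF1delta and eIF3l had the element, and eIF2Bbeta too, but no relaxed peak of both replicates. Summits lay within 100 bp of the TSS at 10 of 11 translation factor genes with the element and at 15 of 23 without it, and at 45.0% and 35.4% of protein-coding genes. From the middle of the element to the highest summit there were 28 bp at eIF3a, 34 bp at eEF1gamma, 57 bp at eIF1A, 81 bp at eIF6 and 185 bp at eIF3c.

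**Figure D5:**
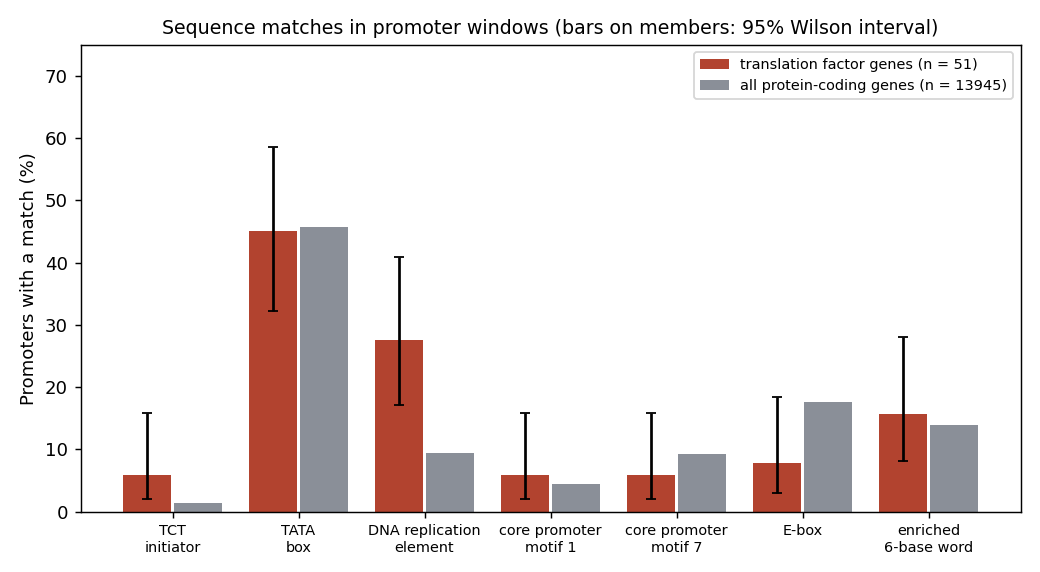
Percent of promoter windows with a match to each of 7 sequence elements, for translation factor genes (red, n = 51, with 95% Wilson intervals) and all protein-coding genes (grey, n = 13945). The DNA replication element is in 27.5% and 9.36%, the TATA word in 45.1% and 45.8%, and the E-box in 7.84% and 17.7%.

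The other elements gave smaller counts. The TATA word TATAAA was in 45.1% of translation factor and 45.8% of protein-coding windows, core promoter motif 1 in 5.88% and 4.50%, motif 7 in 5.88% and 9.29%, the E-box CAGCTG in 7.84% and 17.7%, and the word ACAGTG, which can overlap a match of motif 7, in 15.7% and 13.9%. At the 12 highest IDR summits of translation factor genes there was no match of motif 1, motif 7 or the E-box within 100 bp, and the upper Wilson limit is 24.2%. At all highest summits of protein-coding promoters motif 7 was in 12.3% and the E-box in 11.7%. A match is a run of letters and no measure of binding.

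The TCT initiator, a pyrimidine-rich start known from ribosomal protein and other translation genes, was sought as a pyrimidine, CTTT and a pyrimidine on the gene's strand, with its C within 5 bp of the gene start. It was at 3 of 51 gene starts (5.88%, interval 2.02 to 15.9%), namely eIF3f1, eIF3i and eIF4A, and at 1.38% of protein-coding starts. None of the 12 genes with an IDR peak had it (upper Wilson limit 24.2%), and with 2.05% of protein-coding genes with an IDR peak holding it, a count of 0 says little.

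These lines show the 3 starts that hold it, as 40 bases of dm6 on the gene's strand with 15 before the annotated start, since they are the only matches. Capitals mark the TCT initiator. The windows are chr3R:4714158-4714197 (minus strand) for eIF3f1, chr2L:4967751-4967790 (minus) for eIF3i and chr2L:5981749-5981788 (plus) for eIF4A.
eIF3f1: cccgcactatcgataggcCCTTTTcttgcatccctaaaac
eIF3i: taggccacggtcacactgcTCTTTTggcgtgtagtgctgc
eIF4A: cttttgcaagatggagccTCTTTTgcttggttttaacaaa

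The C lies 4 or 5 bp downstream of the annotated start. The eIF3f1 line also holds the DNA replication element core, in lower case, just before the initiator.

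Other genes of translation were counted from lists of 40 symbols, of which 37 matched a gene of the annotation. An IDR promoter peak was present at 10 of the 37, against 14.4% of protein-coding genes. The median signal of the 28 with a relaxed peak of both replicates was 63.3, against 47.2 over protein-coding genes with one. The lists within the 37 are small and their counts are read beside the same 14.4%, with nothing drawn about a list. Of 7 termination, recycling and quality control genes 5 had an IDR peak: the release factor genes eRF1 (149.0) and eRF3 (121.7), the rescue factor genes pelo (125.5) and HBS1 (79.4), and pix (96.8), the recycling ATPase. Of 8 cap and tail genes, larp, whose protein binds the ends of messenger RNAs, had 678.5 at rank 24, and Thor, the inhibitor of eIF4E, had 95.2. The signal of larp exceeded those of all translation factor genes but eIF1.

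Counts for genes that modify or regulate the factors are read beside the same 14.4% of protein-coding genes. Dhps, which begins the hypusine modification of eEF5, had 126.3, and Dph1, of the diphthamide modification of eEF2, had 84.3, as 2 of 7 genes. In the Tor pathway 1 of 3 genes, Rheb, had an IDR peak, with 110.9. None of the 4 genes PEK, Gcn2, PPP1R15 and crc, of the eIF2 phosphorylation response, and none of 8 mitochondrial factor genes had such a peak. Gcn2, an eIF2 kinase gene, had a signal of 94.5 and rank 682 in replicate 2, with no promoter peak in replicate 3 or in the list of both replicates.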

How the data were processed

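ChIP-seq peaks were analysed from 2 biological replicates of 1 group. Per the deposited descriptions of the files, each peak list was made against a control, from a single replicate or from the joined alignments. Aligner, caller and IDR threshold: not given in the sources used here. The signal of each peak is the authors' own value. The −log10 q-values were deposited by the authors beside it and were used only to describe how weak relaxed peaks can be. The lists on build dm6 were used and those on dm3 were not analysed here. TSSs came from Ensembl release 115, and sequence from the Release 6 assembly, with Python 3.11.15 and numpy 2.4.6. For each gene the highest signal of a summit within 500 bp of any TSS was taken. Shares carry 95% Wilson intervals, which cover counting error only. No test between gene groups was made, since members are not replicates. The members, role groups, elements and named genes (every member with an IDR promoter peak, the 3 just below the threshold, 7 core factors, the 4 with the largest rank differences, members with no relaxed peak in the joint list, and other translation genes with an IDR peak) were chosen with earlier results of these data known, and Gcn2 was named after its values were seen. One listed symbol was matched by an older name. The assignment of summits and the sequence search were tested on simulated data. Alternatives were other windows, list lengths, assignment rules and each replicate alone.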

Additional observations from a re-analysis of the deposited data

How the results depend on the processing

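The count of 12 translation factor genes with an IDR promoter peak lay between 8 and 13 when the TSS window, the assignment rule or the replicate was changed, but was 6 with the 1352 IDR peaks of highest signal. The share of all protein-coding genes fell too, from 14.4% to 8.15% with those 1352 peaks. The 8 apply when the member's TSS must be nearest to the summit, which leaves out eIF1A, eIF3a, eIF4EHP and eIF6. With a TSS window of 200 bp or the peak interval over a TSS eIF4EHP was left out, and with 1000 bp eIF2Bbeta was added. In replicate 3's own 2704 highest peaks there were 13 genes, 10 of them shared with the 12, and in replicate 2's there were 12, of which 11 were shared. Protein-coding genes had such a peak at 14.6% in replicate 3 and 14.5% in replicate 2. The IDR share of 35.3% was 17.6% with the 1352 highest peaks, where that of protein-coding genes was 16.1%. The median signal of 59.1 was 30.4 to 33.8 in the single replicates, whose signals run on a lower scale. The 10 genes high in each replicate were 6 with 1352 and 16 with 5408 peaks per replicate, where the share over protein-coding genes was not computed. With the 200 bp window the signals of eIF1 and eIF3h were 318.4 and 124.4, those of their summits nearer to the TSS. The TCT initiator was in 23.5% of translation factor starts when sought within 20 bp, against 5.39% of protein-coding starts. With any transcript start it was in 11.8%, against 2.13%. A wider search raises both shares, and the difference between them was not tested. No paired analysis was possible because there is 1 group. The unknown depth limits how far a missing peak can be read as absence of enrichment.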
